A study of Homo sapiens with 148 samples.

Results

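Hedgehog signalling was followed through pancreatic differentiation by the RNA levels of 8 genes: the ligands SHH and IHH, the receptor PTCH1, the signal transducer SMO, the transcription factors GLI1, GLI2 and GLI3, and the extracellular inhibitor HHIP. They were taken by gene symbol from the deposited expression table, where all 8 were found, each with a single entry, among 49085 gene names. The table gives mean TPM, a unit which corrects for transcript length and for the total of each stage, so that levels of different genes can be set side by side. The cells were wild-type (labelled WT) H9 human embryonic stem cells (hESCs), an established line, and stages differentiated from the same line: definitive endoderm (DE) collected at day 4, primitive gut tube-like cells (PGT) at day 7, pancreatic progenitors (PP) at day 14, a stage labelled PH whose day and full name are not given in the sources used here, and, at day 35, organoids holding β cells made from the stem cells (SC-β organoids). RNA-seq accounts for 12 of the 148 labelled samples, with 2 samples for each stage. Only the mean of each stage is in the table, so every value below is the authors' mean, with no error and no test. The study's methods give a minimum read depth for all RNA-seq replicates, and the table holds no read number for a stage. All stages are whole cultures of a single cell line, and in such bulk RNA a smaller number of cells of a type cannot be told apart from less RNA per cell.

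In Hedgehog signalling, a secreted ligand binds PTCH1 and relieves its block on SMO at the primary cilium. SMO activity then shifts the GLI proteins from repressors to activators, with GLI3 acting mainly as a repressor and GLI1 as an activator. GLI1, PTCH1 and HHIP are themselves widely used as target genes of the pathway, and PTCH1 and HHIP bind ligand, which makes them negative feedback components. In the embryo, the gut endoderm secretes SHH and IHH towards the surrounding mesenchyme, while SHH is kept out of the region that forms the pancreas. Directed differentiation protocols therefore add an inhibitor of SMO. In this study the inhibitor was Sant1, a small-molecule SMO antagonist, at 0.25 μM in the medium fed on days 7, 8, 9, 11, 13, 14 and 16. The feeds from day 18 onwards list no Sant1. DE was thus collected before any Sant1, PGT on the day of the first feed, PP 7 days after the first feed, and SC-β organoids 19 days after the last. Whether cells were collected before or after the feed of their day is not given in the sources used here. Retinoic acid was first fed on the same day as Sant1, together with other factors such as PdBU. Further factors, among them XXI and betacellulin, were fed from day 14. There was no culture without Sant1. The part of Sant1 in any change can therefore not be told apart from retinoic acid, these other factors, time or the change of cell type.

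The only member promoter with an exact copy of the GLI binding motif GACCACCCA was a PTCH1 promoter. It is shown here because PTCH1 is a known target gene whose level is followed below. The sequence is from RefSeq (GRCh38.p14, the same build as the hg38 used by the authors), on the reverse strand, read 5′ to 3′ in the direction of the gene, with the motif in capitals as its reverse complement TGGGTGGTC:
PTCH1 promoter, chr9:95509390-95509478: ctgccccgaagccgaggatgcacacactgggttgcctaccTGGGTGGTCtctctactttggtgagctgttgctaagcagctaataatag

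The motif lies at chr9:95509430-95509438, between 172 and 164 bases before a PTCH1 transcript start at position 95509266. GENCODE version 44 places no exon in this window, which is intronic for the 6 of 29 PTCH1 transcripts that start further upstream. Both strands of 300 bases around each start (250 before and 50 after) were searched. Promoter entries were matched for 6 of the 8 members, SHH, IHH, PTCH1, HHIP, SMO and GLI2, and GLI1 and GLI3 had none. Of all 35116 promoters of this length, 83 held an exact copy (0.236%) and 2366 a copy with at most 1 mismatch (6.74%). PTCH1 has 5 entries, of which 1 held the exact copy and 2 overlapping entries shared a copy with 1 mismatch. The other members' promoters held neither. A match describes the letters in this window and not occupancy by a GLI protein.

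Levels of the marker genes varied with the stage, and not every marker was highest in the stage it is named for. POU5F1, a pluripotency factor, was at 1449 TPM in hESCs and at 0.377 TPM by the SC-β organoid stage. The 3 pluripotency genes of the list, however, summed to 27.4 TPM in PGT, 68.7 in PP, 109 in PH and 51.3 in SC-β organoids. SOX17, a definitive endoderm factor, was highest in DE at 96.1 TPM, FOXA1 and HNF4A were highest in PGT at 86.0 and 33.7 TPM, and INS and GCG were highest in SC-β organoids at 298 and 2793 TPM. PDX1, which marks pancreatic progenitors, reached only 3.17 TPM in PP. In PH, PDX1 was at 0.0173 TPM and FOXA2 at 1.17 TPM, against 3.17 and 13.2 TPM in PP. INS, GCG and CHGA were at 6.86, 27.2 and 70.0 TPM in PH and 6.93, 16.5 and 215 TPM in PP. Of the neural genes, HES5, LHX5 and FABP7 were highest in PH, at 110, 43.4 and 28.3 TPM, whereas OLIG2 was at 0.318 TPM. ZIC2 was higher in DE (44.7 TPM) than in PH (25.0 TPM), and NES was at 136 TPM in PH and 121 TPM in hESCs. Of 6 neural progenitor genes, 5 were at 1 TPM or more in PH, with a summed level of 343 TPM against at most 151 TPM in any other stage. The summed level of 6 mesenchymal genes was between 16.4 and 77.7 TPM from hESCs to PP, 547 TPM in PH and 1371 TPM in SC-β organoids.

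Both ligands had their highest level in PGT and were near 0 in hESCs. SHH (Sonic hedgehog; ENSG00000164690.8, chromosome 7, 155799980 to 155812463, reverse strand) was at 0.170 TPM in hESCs and 1.38 in DE, then 32.6 in PGT, 10.1 in PP, 2.42 in PH and 10.9 in SC-β organoids. IHH (Indian hedgehog; ENSG00000163501.7, chromosome 2, 219054424 to 219060921, reverse strand) was at 0.00723 TPM in hESCs and 3.48 in DE, then 63.7 in PGT, 4.02 in PP, 0.140 in PH and 3.65 in SC-β organoids. PGT exceeded the next highest stage 2.99-fold for SHH and 15.8-fold for IHH. Below that peak, PP and SC-β organoids differed only 1.07-fold for SHH, and PP, SC-β organoids and DE lay within 1.10-fold and 1.05-fold steps of each other for IHH. No spread between replicates is known, so these neighbours have no established order.

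The identity of the more abundant ligand changed with the stage. IHH was 2.52 times SHH in DE and 1.96 times SHH in PGT, whereas SHH was 2.52 times IHH in PP, 17.3 times in PH and 2.98 times in SC-β organoids. Summed ligand RNA was 4.86 TPM in DE, 96.3 in PGT, 14.2 in PP, 2.56 in PH and 14.5 in SC-β organoids. In PP, IHH was 15.8-fold lower than in PGT and SHH 3.21-fold lower. These ratios within a stage do not change when a stage is rescaled as a whole. Endoderm genes differed among themselves in how they compared with the ligands. SOX17, GATA6 and FOXA2, of the definitive endoderm, summed to 183 TPM in DE, where ligand RNA was low, and to 84.6 TPM in PGT. HNF4A, FOXA1 and ONECUT1 summed to 53.1 TPM in DE, 137 in PGT, 50.3 in PP, 7.05 in PH and 26.0 in SC-β organoids, and 4 hepatic genes (ALB, AFP, APOA1 and TTR) summed to 34.6, 1220, 107, 38.7 and 1338 TPM. The hepatic sums in PGT and SC-β organoids were mostly TTR, at 943 and 1229 TPM. APOA1 was at 252 and 36.0 TPM in these 2 stages, ALB at 2.99 and 39.3 TPM and AFP at 22.2 and 34.3 TPM. Within these lists ONECUT1 was at 17.1 TPM in PGT and 20.6 TPM in PP, and AFP at 22.2 and 27.1 TPM, while both ligands were lower in PP. Their part in the ligand levels was not tested.

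**Figure D1:**
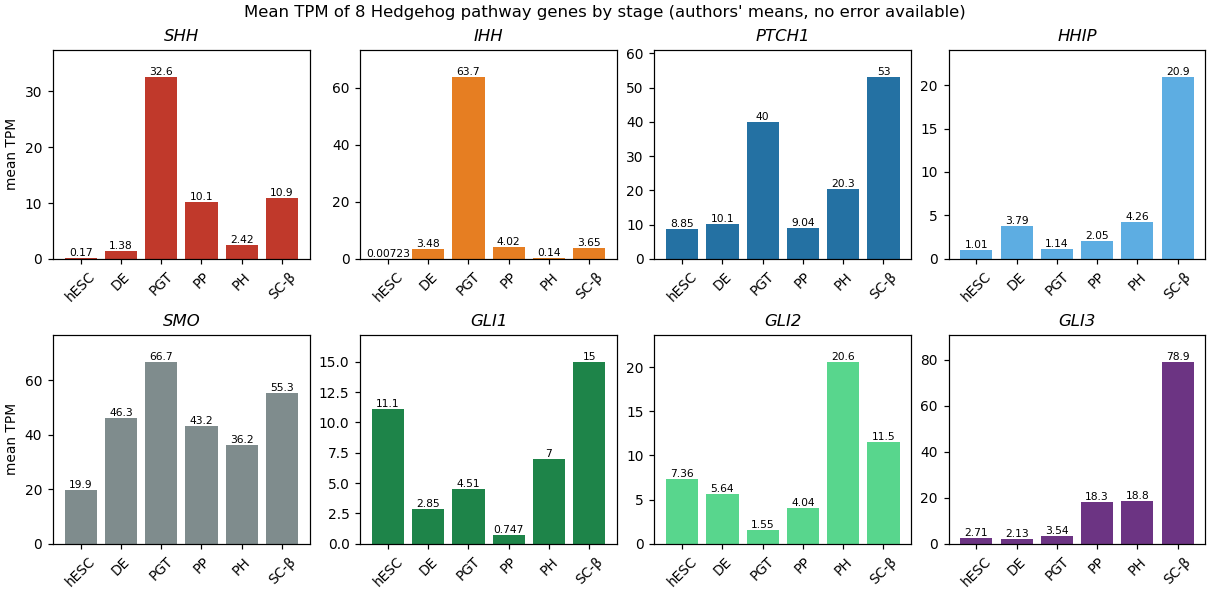
Bars give the authors' mean TPM of each gene (vertical axis, linear and starting at 0, scaled per gene) in the 6 stages (horizontal axis), with no error bars because the table holds means only. SHH, IHH and SMO are tallest in PGT, PTCH1, HHIP, GLI1 and GLI3 in SC-β organoids, and GLI2 in PH, although GLI1 is tallest in hESCs after median-ratio rescaling.

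SMO (ENSG00000128602.11, chromosome 7, 129188633 to 129213545, forward strand), the transducer that Sant1 binds, was expressed at every stage. It was at 19.9 TPM in hESCs and 46.3 in DE, then 66.7 in PGT, 43.2 in PP, 36.2 in PH and 55.3 in SC-β organoids. Its highest level was 3.35 times its lowest, the narrowest range of the 8 genes, and when the 5 differentiated stages are sorted by level, neighbours are at most 1.21-fold apart. SMO exceeded PTCH1 at every stage, 4.78-fold in PP but only 1.04-fold in SC-β organoids.

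The receptor and the inhibitor differed in the early stages and were both highest at the end. PTCH1 (ENSG00000185920.19, chromosome 9, 95442980 to 95517057, reverse strand) was at 8.85 TPM in hESCs and 10.1 in DE, then 40.01 in PGT, 9.04 in PP, 20.3 in PH and 53.0 in SC-β organoids. Its levels in hESCs, DE and PP lay within 1.02-fold and 1.12-fold steps, and PGT and SC-β organoids stood above them. HHIP (ENSG00000164161.10, chromosome 4, 144646156 to 144745271, forward strand) stood at 1.01 TPM in hESCs and 3.79 in DE, then 1.14 in PGT, 2.05 in PP, 4.26 in PH and 20.9 in SC-β organoids. In PGT, where PTCH1 was high, HHIP was therefore close to its lowest level. HHIP shares its locus with the opposite-strand gene HHIP-AS1, and whether reads were assigned by strand is not given in the sources used here.

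GLI1 (ENSG00000111087.10, chromosome 12, 57459785 to 57472268, forward strand) stood at 11.1 TPM in hESCs and 2.85 in DE, then 4.51 in PGT, 0.747 in PP, 7.0 in PH and 15.0 in SC-β organoids. It was thus lowest in PP, and hESCs, in which both ligands were near 0, had its second highest level. The order of SC-β organoids and hESCs, 1.35-fold apart, is reversed by the median-ratio rescaling described under the processing. The opposite-strand gene ARHGAP9 overlaps GLI1. GLI2 (ENSG00000074047.22, chromosome 2, 120735623 to 120992653, forward strand), the main activator at the start of a response, stood at 7.36 TPM in hESCs and 5.64 in DE, then 1.55 in PGT, 4.04 in PP, 20.6 in PH and 11.5 in SC-β organoids. It was lowest in PGT, the stage with the most ligand RNA. GLI3 (ENSG00000106571.15, chromosome 7, 41960949 to 42264100, reverse strand) was at 2.71 TPM in hESCs and 2.13 in DE, then 3.54 in PGT, 18.3 in PP, 18.8 in PH and 78.9 in SC-β organoids. PP and PH differed 1.03-fold, and SC-β organoids were 4.2-fold above PH.

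The make-up of the GLI family differed between PGT and PP. GLI1 made up 52.4% of the summed GLI RNA in hESCs and 26.8% in DE, then 47.0% in PGT, 3.23% in PP, 15.1% in PH and 14.2% in SC-β organoids. GLI3 made up 12.8% in hESCs and 20.0% in DE, then 36.9% in PGT, 79.3% in PP, 40.5% in PH and 74.9% in SC-β organoids. GLI3 was 24.5 times GLI1 in PP, 5.27 times in SC-β organoids and 0.786 times in PGT. The sum of the 3 genes was 9.59 TPM in PGT and 105 TPM in SC-β organoids. These are shares of RNA, and the processing of GLI3 protein into its repressor form was not measured.

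**Figure D2:**
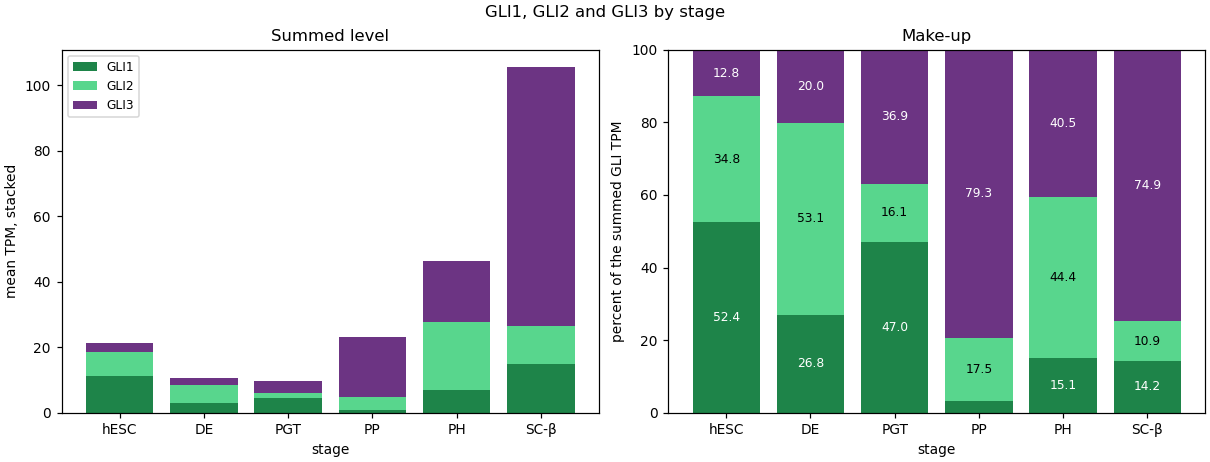
The left panel stacks the mean TPM of GLI1, GLI2 and GLI3 in each stage (vertical axis from 0) and the right panel gives each gene's percent of their sum, with shares of 6% and over printed. GLI3 takes 79.3% in PP and 74.9% in SC-β organoids. GLI1 takes 47.0% in PGT but 3.23% in PP.

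Changes between stages were computed as the log2 ratio of TPM + 1, and a gene was counted as higher or lower from 2-fold on that scale. From hESCs to DE, SHH (log2 ratio 1.02), IHH (2.15), HHIP (1.25) and SMO (1.18) were higher and GLI1 was lower (-1.65), 4 and 1 of 8 genes. Over all 49085 names, 12.9% were higher and 2.55% lower at this step. Among the 22514 names at 1 TPM or more in either stage these shares were 28.2% and 5.55%, and their median log2 ratio was 0.58, so DE values were generally above hESC values. Rescaling of the stages lowered that median to 0.17, and then only IHH (1.99) of the 4 stayed above 2-fold, while GLI1 was at -2.06.

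From DE to PGT, SHH (3.82), IHH (3.85) and PTCH1 (1.88) were higher and HHIP (-1.16) and GLI2 (-1.38) were lower, 3 and 2 of 8, where 2.30% of all names were higher and 4.92% lower. GLI1 (0.52) and SMO (0.52) stayed under 2-fold. The ligands and the receptor were thus higher at this step, and of the other known targets HHIP was lower and GLI1 stayed under 2-fold.

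From PGT to PP, the step over which Sant1 was fed, 4 genes were lower and 1 was higher, where 3.25% of all names were lower and 2.74% higher, and 7.46% and 6.30% of the names at 1 TPM or more in either stage. IHH (-3.69), PTCH1 (-2.03), GLI1 (-1.66) and SHH (-1.59) were the lower ones and GLI3 (2.09) the higher. GLI2 was just under the limit at 0.98, and its ratio was 1.33 with a pseudocount of 0.1. HHIP had a ratio of 0.51 and SMO of -0.61, so that of the 3 known target genes PTCH1 and GLI1 were lower and HHIP was not. The median over the 8 genes was -1.10, against 0.00 over all names and -0.10 over the names at 1 TPM or more in either stage.

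From PP to SC-β organoids, across the end of the Sant1 feeds, GLI1 (3.19), HHIP (2.84), PTCH1 (2.43), GLI3 (2.05) and GLI2 (1.31) were higher and none of the 8 was lower, where 10.6% of all names were higher and 0.939% lower, and 20.7% and 1.84% of the names at 1 TPM or more in either stage. The ligands hardly differed, with ratios of 0.09 for SHH and -0.11 for IHH, and the sign for SHH turns under rescaling (-0.16). All 3 known targets were thus higher at closely similar ligand RNA. The mesenchymal markers moved with them: all 6 were at 1 TPM or more in both stages, and their sum was 1371 TPM in SC-β organoids against 61.4 TPM in PP, with COL3A1 at 14.9 and 771 TPM, PRRX1 at 16.4 and 213 TPM and PDGFRA at 11.9 and 205 TPM. The neural progenitor genes summed to 67.0 and 151 TPM. Mesenchyme was not the only list to be higher at this step. The endocrine sum (INS, GCG and CHGA) rose from 239 to 3896 TPM, and the hepatic sum from 107 to 1338 TPM. The pancreatic progenitor sum stayed low, at 5.93 and then 7.25 TPM. The gut tube sum (HNF4A, FOXA1 and ONECUT1) fell from 50.3 to 26.0 TPM. Definitive endoderm and pluripotency sums were lower too. The part of these cell types in the levels of the target genes was not tested.

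**Figure D3:**
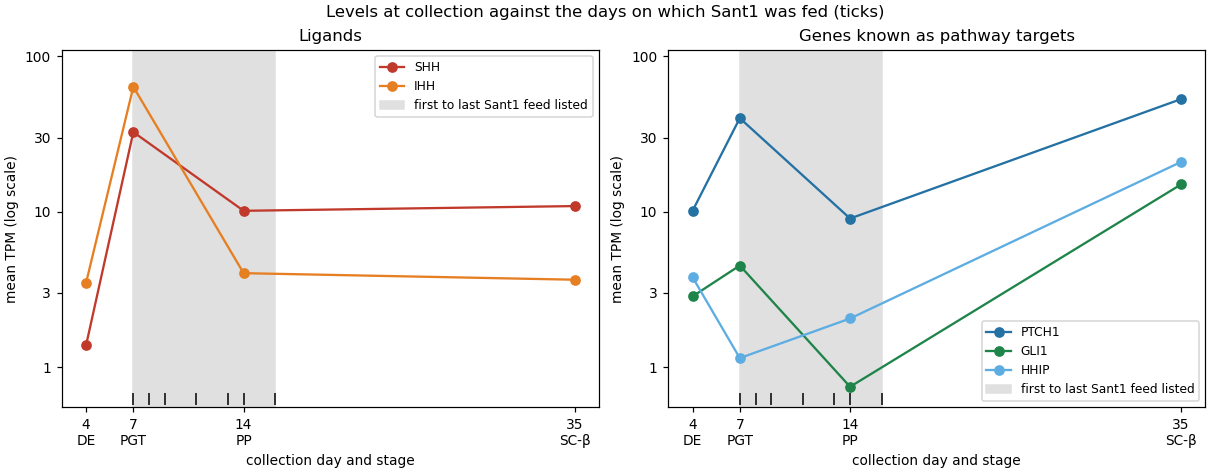
Mean TPM (vertical axis, log scale) of the ligands (left) and of the known target genes (right) is plotted against collection day for DE, PGT, PP and SC-β organoids. Grey marks the span from the first to the last Sant1 feed, ticks mark single feeds, and lines only join the stages. PTCH1 and GLI1 dip in PP, to 9.04 and 0.747 TPM, and all 3 targets are highest at day 35.

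PH differed from PP in both directions. SHH (-1.70) and IHH (-2.14) were lower, and GLI1 (2.2), GLI2 (2.1) and PTCH1 (1.08) were higher, 2 and 3 of 8, where 5.73% of all names were lower and 5.14% higher. HHIP (0.78) stayed under 2-fold, although it was at 1.02 with a pseudocount of 0.1. PH thus combined the lowest ligand RNA of the stages after hESCs with the highest GLI2 level of all 6 stages. The neural progenitor markers were 343 TPM in PH and 67.0 TPM in PP in sum, and the mesenchymal markers 547 and 61.4 TPM. Their part in these differences was not tested. SC-β organoids against PH gave 5 genes higher, HHIP (2.06), IHH (2.03), GLI3 (2.01), SHH (1.80) and PTCH1 (1.35), and 0 lower, where 14.7% of all names were higher and 2.41% lower. GLI1, at 0.997, was just under 2-fold. Of the names at 1 TPM or more in either stage 28.1% were higher, with a median of 0.59. With rescaling and without the 100 most abundant names, PTCH1 came under 2-fold (0.86 and 0.92) and GLI2 was lower (-1.25 and -1.26).

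**Figure D4:**
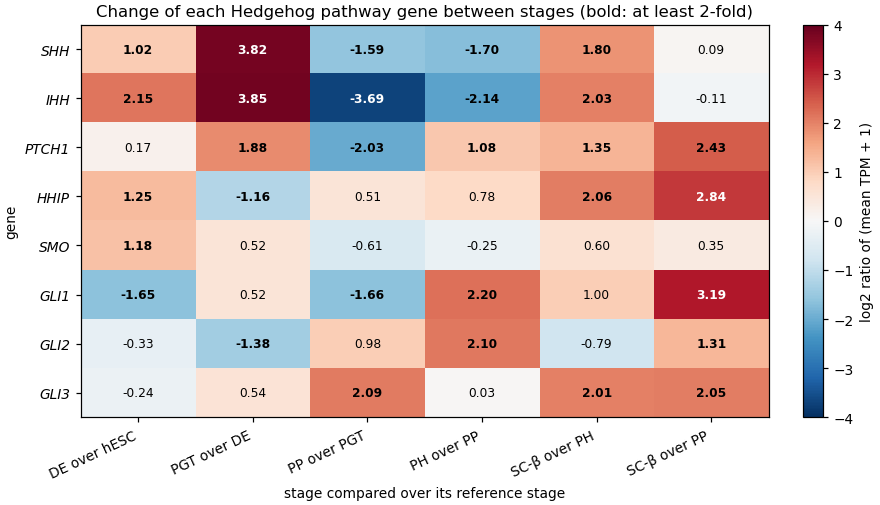
Each cell gives the log2 ratio of mean TPM + 1 for a gene (rows) in a stage over its reference stage (columns), red for higher and blue for lower, with ratios of at least 2-fold in bold. PTCH1 and GLI1 are blue for PP over PGT and red for SC-β over PP, and the GLI1 ratio printed as 1.00 for SC-β over PH is 0.997, under the limit.

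The other genes of the pathway were read from 36 genes in 4 lists. Of these, 19 were higher and 1 lower from hESCs to DE (median log2 ratio 1.04, against 0.12 over all names), 5 and 2 from DE to PGT (0.05 against -0.03), 4 and 2 from PGT to PP (-0.01 against 0.00), 4 and 3 from PP to PH (0.05 against 0.00), 13 and 1 from PH to SC-β organoids (0.58 against 0.20), and 13 and 0 from PP to SC-β organoids (0.68 against 0.16). Of the names at 1 TPM or more in either stage, 28.2% were higher in DE than in hESCs, 28.1% in SC-β organoids than in PH and 20.7% in SC-β organoids than in PP, with medians of 0.58, 0.59 and 0.45. The shares lower at these steps were 5.55%, 4.6% and 1.84%. From DE to PGT, PGT to PP and PP to PH, 4.94%, 6.3% and 11.5% of such names were higher and 10.6%, 7.46% and 12.8% lower. The median of the 36 genes from PH to SC-β organoids (0.58) was thus that of expressed names in general.

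Among genes for ligands and their release, DHH (Desert hedgehog) did not exceed 0.649 TPM at any stage. That level was in PH, where it was above IHH (0.140 TPM) and below SHH (2.42 TPM). HHAT, which palmitoylates Hedgehog ligands, was at 0.300 TPM in hESCs and 10.0 in DE (log2 ratio 3.08), and stayed between 4.57 and 11.4 TPM afterwards. DISP1, which releases the lipid-modified ligand, was at 2.14 TPM in hESCs, 7.07 in DE and 19.7 in SC-β organoids. SCUBE3 and SCUBE2, secreted proteins that help to carry ligand away, had different patterns: SCUBE3 was highest in PP at 30.9 TPM, and SCUBE2 was at most 3.76 TPM outside PH and at 41.5 TPM in PH.

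The co-receptors, which bind ligand together with PTCH1, were higher at the later stages. BOC was at 0.806 TPM in hESCs and 5.24 in DE, then 16.6 in PGT, 51.6 in PP, 117 in PH and 185 in SC-β organoids, and it passed 2-fold at each step up to PH. CDON was at 12.3, 18.8, 36.5, 41.0, 133 and 169 TPM and GAS1 at 0.813, 3.95, 16.8, 12.9, 41.0 and 59.3 TPM in the same order. From PP to SC-β organoids, CDON (2.01), BOC (1.82) and GAS1 (2.11) were all higher, 3 of the 4 genes of the list. At this step 10.6% of all names were higher, and 20.7% of the names at 1 TPM or more in either stage. LRP2, an endocytic receptor that can bind SHH, was highest in PGT at 29.8 TPM.

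Genes that carry the signal from SMO to the GLI proteins passed 2-fold only at the first step and in SC-β organoids. Of 17 such genes, 12 were higher from hESCs to DE, where 12.9% of all names and 28.2% of those at 1 TPM or more were higher, among them SUFU (1.86), which holds GLI proteins in the cytoplasm, IFT88 (1.83), needed to build cilia, and EVC (1.73), a ciliary partner of SMO. None passed 2-fold from DE to PGT, from PGT to PP or from PP to PH. From PH to SC-β organoids, 4 were higher and 0 lower, EVC, PRKACA, IFT88 and DYNC2H1, where 28.1% of the names at 1 TPM or more were higher. From PP to SC-β organoids, 4 were also higher and 0 lower, a share near the 20.7% of names at 1 TPM or more, including PRKACA, a catalytic subunit of protein kinase A, at 9.83 and 21.4 TPM (1.05).

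Of 10 genes known as Hedgehog targets in other settings, 2 were higher and 2 lower from PGT to PP and 5 were higher and 0 lower from PP to SC-β organoids (median 1.03). At the latter step 10.6% of all names were higher, and of names at 1 TPM or more 20.7% were higher, with a median of 0.45. From PH to SC-β organoids, 7 were higher and 0 lower, where 28.1% of names at 1 TPM or more were higher. The median of the 10 genes was 1.08, close to the limit, against 0.59 for such names. Rescaling, which lowered the latter median to 0.15, was not applied to these 10 genes. The mesenchymal forkhead gene FOXF1 did not exceed 0.213 TPM before SC-β organoids, where it was at 2.11 TPM. FOXF2 was at 1.94 TPM in PGT, listed at 0 in PP, and in SC-β organoids it was at 4.00 TPM. SFRP1, a secreted WNT inhibitor, was at 476 TPM in DE and 58.8 in PGT, then 23.0 in PP before 141 in SC-β organoids, and BCL2, an inhibitor of apoptosis, was at 0.868 TPM in PGT and 4.98 in PP (1.68). The cell-cycle genes CCND1 and CCND2 were abundant throughout, at 46.9 to 139 TPM and at 41.0 to 201 TPM. Several of these genes also respond to other pathways.

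**Figure D5:**
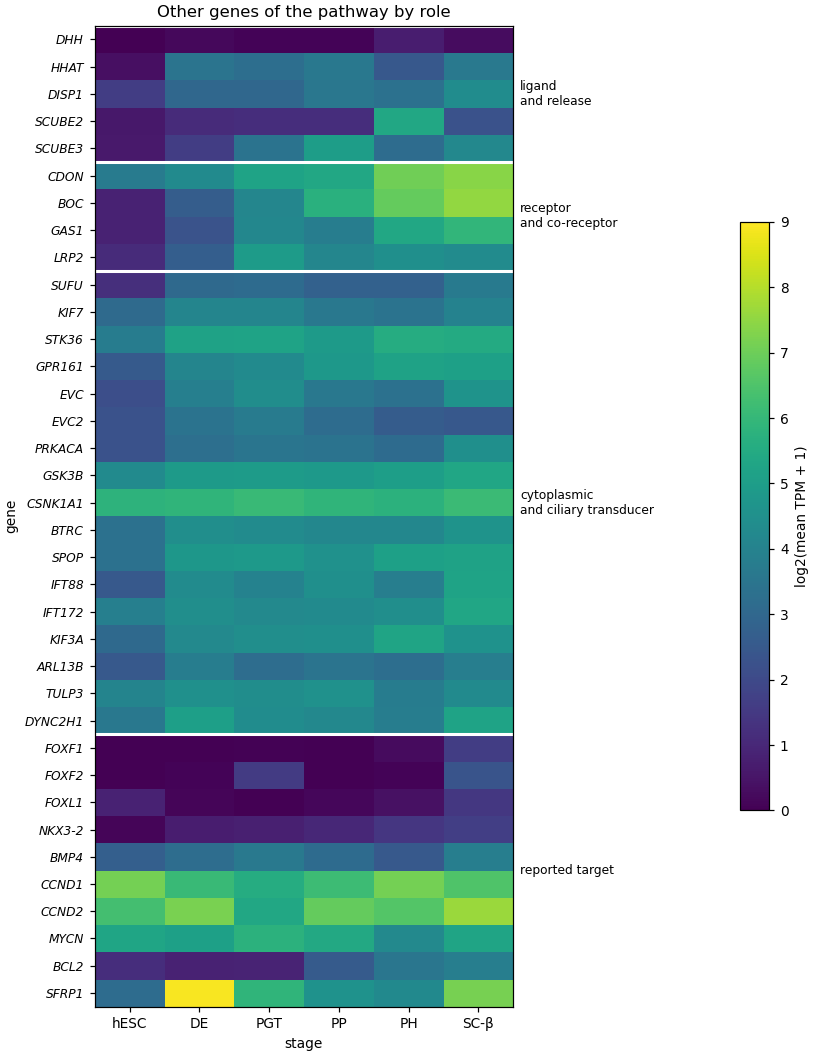
Colour gives log2(mean TPM + 1) of 36 genes (rows, grouped by role) in the 6 stages (columns). The co-receptors BOC and CDON brighten towards PH and SC-β organoids, the transducers are dimmest in hESCs for most genes, and SCUBE2 is bright only in PH, at 41.5 TPM.

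Among 12849 names at 10 TPM or more in some stage, the profiles most like that of SHH over the 6 stage means were those of SLC39A5 (Pearson r 0.998), a zinc transporter, MTTP (0.982), which loads lipid onto lipoproteins, and TGIF2 (0.982). SLC39A5 was at 0.105, 1.62, 32.0, 9.09, 2.06 and 11.01 TPM from hESCs to SC-β organoids in the order of the other genes. For PTCH1 they were TUB (0.994), BACH1 (0.988) and MVP (0.985), and for GLI1 they were SCARNA6 (0.964), RPL10 (0.952) and SCAMP5 (0.943). With 6 points and this many names, coefficients of this size are a description only. They rest on shape and not on range: RPL10 lay between 380 and 612 TPM, whereas GLI1 varied 20.1-fold. Among the members, r ranged from -0.815 between IHH and GLI2 to 0.855 between SHH and SMO. It was 0.852 between SHH and IHH, 0.512 between PTCH1 and GLI1, 0.794 between HHIP and GLI3, and -0.228 between SHH and GLI1.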

How the data were processed

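RNA from 2 replicates per stage was sequenced by the authors. Per the labels and methods, reads were aligned to hg38 with HISAT2 (version 2.2.0), and StringTie (version 2.1.6) gave TPM per gene. The authors deposited the mean TPM of each stage, without replicates or counts. The methods state a minimum depth for all RNA-seq replicates. The annotation is not given in the sources used here. The methods state removal of ribosomal RNA with RiboMinus and the labels also name a stranded mRNA kit. Other assays are not used here.

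Entries sharing a name (231 names) were summed. Log2 ratios used a pseudocount of 1 TPM, and at least 2-fold was counted over all names, so ratios understate changes of low genes. With means only, no test was possible. The alternatives were a pseudocount of 0.1, median-ratio rescaling (each stage divided by the median, over 13938 names at 1 TPM or more throughout, of its ratios to a name's geometric mean) (log2 divisors from -0.27 in hESCs to 0.25 in SC-β organoids), removal of the 100 most abundant names, the highest entry per name, a 4-fold limit and a filter at 1 TPM. Members and gene lists were chosen with earlier results of these data known. Named genes were the members, genes of the lists at 1 TPM or more that passed 2-fold or led their list, and the 3 most similar profiles for SHH, PTCH1 and GLI1, without clone names. A gene of the lists is not reported here. Names outside this rule (DHH and those of the closing observations) were chosen after their values were seen. The calculations were tested on simulated data. Positions are from GENCODE version 44 (GRCh38). Python 3.11.15, numpy 2.4.6, pandas 2.3.3 and matplotlib 3.10.9 were used.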

Additional observations from a re-analysis of the deposited data

How the results depend on the processing

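Of 192 log2 ratios of single genes under the alternatives, 176 stayed on the same side of 2-fold with the same sign, 8 passed 2-fold, 5 came under it, and 3 changed sign while under 2-fold in both settings; no ratio past 2-fold changed sign. Of 78 counts, 12 changed by more than 1.5 times. With a 4-fold limit, 1 gene was higher and 0 lower from hESCs to DE, 0 were lower from DE to PGT, 2 were lower from PGT to PP, 1 was lower from PP to PH, and 3 were higher from PH to SC-β organoids. From PGT to PP, 2 genes were higher with a pseudocount of 0.1, with median-ratio rescaling and without the 100 most abundant names, in each case by the addition of GLI2 (1.33, 1.04 and 1.28). With rescaling, 1 gene was higher from hESCs to DE. From PH to SC-β organoids, 1 gene was lower both with rescaling and without the 100 most abundant names, GLI2 at -1.25 and -1.26, and PTCH1 came under 2-fold (0.86 and 0.92). The highest entry per name and the 1 TPM filter could not change these counts, since each gene has 1 entry and a gene under 1 TPM in both stages cannot pass 2-fold. Of the 192 ratios, the 48 with the highest entry per name could likewise not change. No paired analysis was possible because the deposited columns are means over the replicates, and for the same reason no replicate could be left out. The table holds no read counts per gene, which leaves levels below 1 TPM, such as GLI1 in PP, without a known precision.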

Other observations

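Names related to the 8 genes by sequence or position were read after the values of the members were seen. GLIS3, a zinc finger factor of the GLI-similar family that is needed in β cells, was at 0.601 TPM in hESCs and 2.00 in DE, then 4.14 in PGT, 12.0 in PP, 2.66 in PH and 43.1 in SC-β organoids. Unlike GLI3, which was nearly level between PP and PH, GLIS3 was lower in PH than in PP. PTCHD4, which encodes a patched domain protein, was highest in PP at 23.9 TPM and was at most 5.83 TPM in the other stages. HHIPL2, a relative of HHIP, was highest in PGT at 4.67 TPM, where HHIP was at 1.14 TPM. HHIP-AS1, on the strand opposite HHIP, was at 0.453, 2.37, 1.19, 1.54, 2.37 and 4.08 TPM from hESCs to SC-β organoids and was highest, like HHIP, in SC-β organoids.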
